A study of Mus musculus with 8 samples.

Results

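Phosphorylated RNA polymerase II was mapped over the genes for the proteins of the cytosolic ribosome in MEL cells, a mouse erythroleukaemia line. The genes were taken by name from the RefSeq gene table of GRCm38.p6: protein-coding genes called Rpl or Rps plus a number with an optional letter, together with Rpsa, Rplp0, Rplp1 and Rplp2. Ribosomal S6 kinases, names ending in l plus a number, and 3 pseudogenes with a matching name were left out. This gave 81 of 21536 protein-coding genes with a known strand: 46 core genes of the large (60S) subunit, 30 core genes of the small (40S) subunit and 5 paralogs of a core gene (Rpl3l, Rpl10l, Rpl32l, Rpl39l and Rps27l). The naming rule leaves out Rps3a1, Rpl36al, Rpl22l1 and Rpl7l1.

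The study used CUT&Tag, in which an antibody tethers a transposase that tags nearby chromatin, with antibodies against the Rpb1 C-terminal domain phosphorylated on serine 5 (Ser5P) or serine 2 (Ser2P). The cells were a MEL line labelled dCAS Myrlin KD and a MEL line labelled dCAS control, and both carry the dCAS background. Myrlin is an RNA made from an enhancer of Myb, and the question behind the comparison is what its knockdown does to polymerase. There were 2 libraries for each antibody and line, 8 in all, and the same number of cells was collected for each. Whether a line is a clone, and whether its 2 replicates were grown as separate cultures, is not stated in the labels, and the spread behind each p-value may therefore be technical.

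Each ribosome is built from a large subunit, which joins amino acids, and a small subunit, which reads the messenger RNA, and every core protein is needed in about equal numbers. Their genes are short and are among the most heavily transcribed in growing cells. Most of their messages start with a C followed by a run of pyrimidines, the 5′ TOP motif, through which mTOR signalling sets their translation. In red cell precursors the demand for ribosomes is high, and in people the loss of 1 copy of a gene such as RPS19 or RPL5 causes Diamond-Blackfan anaemia, a failure of red cell production. Polymerase gains Ser5P as it starts a transcript, and Ser2P builds up as it moves towards the 3′ end.

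The start regions below are shown because they belong to genes whose peaks differed between the lines (Rpl35, Rps23, Rpl13, Rpl6, Rps9 and Rpsa), or to contrasting starts: Rpl27a and Rps18 have a long pyrimidine tract, and Rpl3l is a paralog. They come from RefSeq (GRCm38.p6) and run from 100 bases before to 20 bases after the listed start on the gene's strand. Capitals mark the unbroken run of pyrimidines at the start.
Rpl35, chr2:39005112-39005231, minus strand: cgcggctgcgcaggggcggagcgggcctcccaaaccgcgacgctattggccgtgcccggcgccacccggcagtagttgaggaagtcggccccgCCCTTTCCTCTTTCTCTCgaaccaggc
Rpl27a, chr7:109519095-109519214, plus strand: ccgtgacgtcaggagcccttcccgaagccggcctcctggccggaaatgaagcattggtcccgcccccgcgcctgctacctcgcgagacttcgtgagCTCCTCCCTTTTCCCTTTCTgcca
Rps18, chr17:33955646-33955765, minus strand: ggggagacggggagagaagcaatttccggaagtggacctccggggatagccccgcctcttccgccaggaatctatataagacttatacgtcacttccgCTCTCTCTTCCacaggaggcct
Rps9, chr7:3703941-3704060, plus strand: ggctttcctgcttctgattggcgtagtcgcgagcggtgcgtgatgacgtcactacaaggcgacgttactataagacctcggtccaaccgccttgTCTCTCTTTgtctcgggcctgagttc
Rps23, chr13:90923022-90923141, plus strand: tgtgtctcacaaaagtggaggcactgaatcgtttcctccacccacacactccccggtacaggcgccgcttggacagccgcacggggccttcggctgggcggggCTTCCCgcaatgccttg
Rpl13, chr8:123102250-123102369, plus strand: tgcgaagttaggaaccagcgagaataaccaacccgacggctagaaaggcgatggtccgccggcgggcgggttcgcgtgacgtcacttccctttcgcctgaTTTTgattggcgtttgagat
Rpl6, chr5:121204401-121204520, plus strand: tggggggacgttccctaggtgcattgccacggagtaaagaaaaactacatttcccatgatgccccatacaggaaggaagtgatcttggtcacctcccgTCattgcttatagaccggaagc
Rpsa, chr9:120127666-120127785, plus strand: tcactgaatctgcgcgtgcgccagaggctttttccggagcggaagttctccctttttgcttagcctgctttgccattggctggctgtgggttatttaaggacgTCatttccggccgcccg
Rpl3l, chr17:24727726-24727845, plus strand: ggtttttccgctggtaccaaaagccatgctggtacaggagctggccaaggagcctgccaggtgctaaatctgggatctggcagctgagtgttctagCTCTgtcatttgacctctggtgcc

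The pyrimidine run at the listed start was 18 bases long in Rpl35, 20 in Rpl27a and 11 in Rps18, against 2 in Rpl6 and in Rpsa. A pyrimidine start, defined as a C within 3 bases of the listed start followed by at least 4 pyrimidines, was present in 24 of the 61 ribosomal protein promoters in the RefSeq promoter table (39.3%). Among all 17492 promoters in that table the share was 11.3%, and among the 6706 with a Ser5P peak in all 4 Ser5P libraries it was 12.3%. The mitochondrial ribosomal protein genes, whose products serve the other ribosome of the cell, stood at 11.6% of 69 promoters. Within 250 bases before to 50 after the start, searching both strands, the ETS letters CCGGAAG were in 39.3% of ribosomal protein promoters, against 11.9% of all promoters. The YY1 letters AANATGGCG were in 8.20% against 3.28%, the Sp1 letters GGGCGG in 57.4% against 46.3%, TATAAA in 11.5% against 13.3%, and CCAAT in 31.1% against 39.2%. Among the 6706 promoters with Ser5P the shares were 22.9% (ETS), 6.29% (YY1), 68.8% (Sp1), 6.31% (TATAAA) and 42.2% (CCAAT). Against these the ribosomal protein promoters were lower for Sp1 and higher for TATAAA. Among the 69 mitochondrial ribosomal protein promoters the shares were 34.8%, 15.9%, 49.3%, 5.80% and 39.1%, in the same order. Among 56 core promoters, the 22 with a pyrimidine start and the 34 without had median Ser5P promoter coverage of 693 and 692 bp. A match of letters is a description of the sequence and not a shown binding site.

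Peaks were called by the authors in each library apart, and a gene was counted as marked where a peak overlapped its window by at least 1 bp. The promoter window is 1000 bp each side of the outer 5′ end, and the downstream window begins 1000 bp inside that end and stops 3000 bp past the 3′ end. The number of Ser5P peaks was 21574 and 24509 in KD and 23964 and 25441 in control, and for Ser2P it was 32125 and 29372 in KD and 30286 and 20793 in control. Relative depth, read from the most frequent background pileup, was 0.649 and 0.839 in Ser5P KD, 0.568 and 0.640 in Ser5P control, 1.12 and 1.03 in Ser2P KD, and 0.780 and 0.439 in Ser2P control. Ser2P control 2 is thus the shallowest library and has the shortest list. Median peak width was 533.5 and 532 bp in Ser5P KD against 486 and 497 bp in Ser5P control, and 478 and 479 bp in Ser2P KD against 428 and 381 bp in Ser2P control. Every KD library had wider peaks than either control of its antibody, and the part of width and depth in the coverage differences given below was not tested. Of 12 erythroid markers, 8 and 6 had a Ser5P promoter peak in the KD libraries and 7 and 8 in the controls. None of 8 lymphoid markers had one in any Ser5P library, and 0 to 1 of 8 non-haematopoietic markers did.

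Almost every core ribosomal protein gene carried polymerase at its start with both antibodies. Ser5P marked 74 and 73 of the 81 promoters in the KD libraries and 75 and 74 in the controls, and 73 promoters (90.1%) were marked in all 4 Ser5P libraries, against 37.7% of all protein-coding genes. Ser2P marked 73 and 73 promoters in the KD libraries and 72 and 67 in the controls, and 67 (82.7%) were marked in all 4, against 36.3% of all genes. The 67 promoters with Ser2P in every library also had Ser5P in every library. By subunit, 43 of 46 core 60S genes and 29 of 30 core 40S genes had a Ser5P promoter peak throughout. The 3 genes of the P-stalk, the arm of the large subunit that recruits elongation factors (Rplp0, Rplp1 and Rplp2), were marked in every library. All 20 members whose human counterparts are mutated in Diamond-Blackfan anaemia were marked with both antibodies in all 8 libraries. The same counts for related lists were 70 (Ser5P) and 66 (Ser2P) of 78 mitochondrial ribosomal protein genes, 61 and 59 of 71 translation factors, and 78 and 77 of 82 ribosome biogenesis factors.

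**Figure D1:**
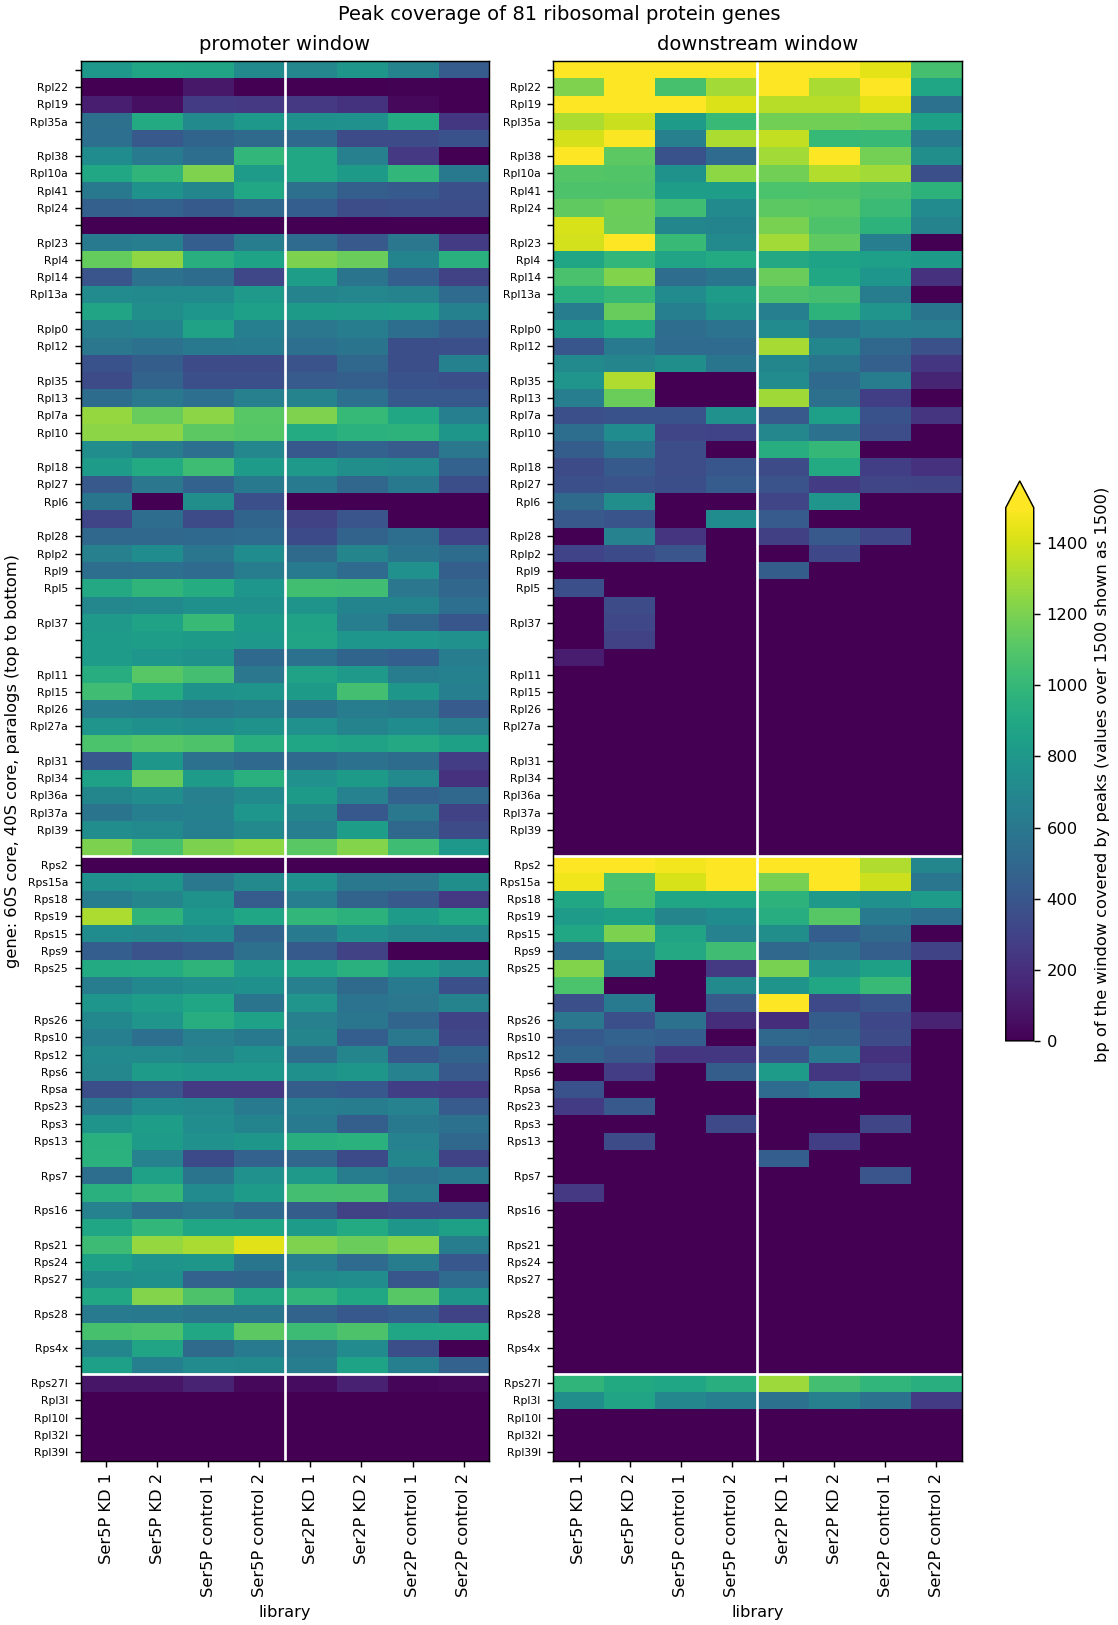
Heat maps of covered bp in the promoter window (left) and the downstream window (right) for the 81 genes (rows) in the 8 libraries (columns, Ser5P then Ser2P, KD before control), with values over 1500 bp shown as 1500. Rows are labelled for the 61 genes in the RefSeq promoter table. The promoter column is filled for most core genes, while 24 genes have no downstream peak in any library.

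The genes without a Ser5P promoter peak in every library fell into separate kinds. The paralogs Rpl10l and Rpl39l, known from the testis, Rpl3l, known from heart and skeletal muscle, and Rpl32l had no promoter peak in any of the 8 libraries. The paralog Rps27l, a broadly expressed relative of Rps27, did have peaks, although only 30 to 151 bp of its window were covered by Ser5P. Its listed start lies 1462 bp inside the outer end, and around that start Ser5P covered 1066 and 999 bp in the KD libraries and 1035 and 972 bp in the controls. Rps2, a core 40S protein near the decoding site, had no peak in its window, but around its listed start, 1942 bp further in, Ser5P covered 688 and 762 bp in the KD libraries and 820 and 694 bp in the controls. At Rpl22, a 60S protein, the nearest Ser5P summits lay 1466 and 1466 bp inside the gene in the KD libraries and 1382 and 1467 bp in the controls. At Rpl17, which lines the exit tunnel, the nearest Ser5P summits lay 1566 bp inside the gene in both KD libraries, while in the controls none lay nearer than 6795 bp. These control summits of Rpl17 lay 2392 and 2432 bp past its 3′ end, and the KD libraries also had summits there, 2451 and 2356 bp past it. With Ser2P the nearest Rpl17 summits lay 1574 and 1703 bp from the 5′ end in KD and 1566 and 6854 bp in control. Rpl17 and Rps2 hold peaks in their downstream windows in all 8 libraries, and the nearest summits given here lie beyond the reach of the promoter window. Rpl6, a 60S protein, had promoter Ser5P in 3 of 4 libraries. Its coverage was 582 and 0 bp in the KD libraries and 744 and 364 bp in the controls, and Ser2P was absent from the window in all 4 libraries.

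The length of the covered promoter stretch varied across the family. Over the 76 core genes the mean of the 4 Ser5P libraries ran from 0 to 1258 bp with a median of 711 bp, and the mean of the 4 Ser2P libraries from 0 to 1054.5 bp with a median of 580 bp. The share of core genes with a peak was highest just before the 5′ end. At 50 bp upstream it was 90.8% and 89.5% in Ser5P KD, 89.5% and 86.8% in Ser5P control, 89.5% and 90.8% in Ser2P KD, and 84.2% and 77.6% in Ser2P control. At 1000 bp into the gene it had dropped to between 5.26% and 6.58% for Ser5P. The median summit of the best promoter peak lay 23 and 30 bp upstream of the 5′ end in Ser5P KD (−23 and −30 bp) and at −53 and −42.5 bp in the controls, whereas over all marked genes it lay downstream, at 28 and 33 bp in KD and 9 and 9 bp in the controls.

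**Figure D2:**
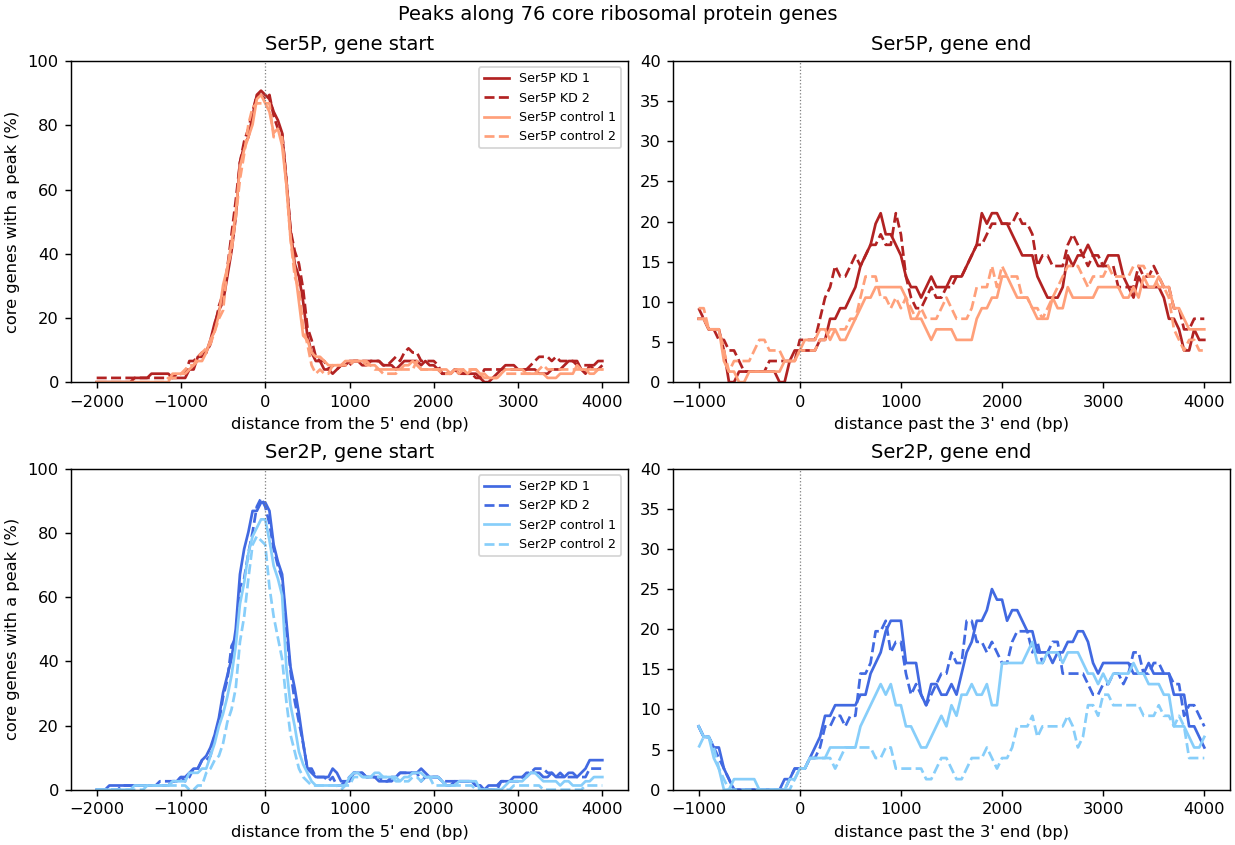
Share of the 76 core genes (%) with a peak at each distance from the 5′ end (left) and past the 3′ end (right), Ser5P above and Ser2P below, 1 line per library with KD dark and control light. Near the start the lines reach 77.6% to 90.8% at −50 bp. At 1900 bp past the 3′ end they lie at 21.1% and 19.7% in Ser5P KD and at 10.5% and 14.5% in Ser5P control.

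Ribosomal protein promoters were marked more often than promoters in general, yet their peaks did not rank highest. Within each list the authors' fold at the best promoter peak was turned into a percentile of that list's peaks. The median percentile of marked ribosomal protein promoters was 59.8 and 61.7 in Ser5P KD and 66.9 and 68.0 in Ser5P control, against 75.1 and 77.1 (KD) and 75.5 and 76.1 (control) over all marked promoters. With Ser2P it was 70.3 and 68.7 in KD and 66.5 and 66.6 in control, against 81.6 and 80.5 (KD) and 79.8 and 74.1 (control) over all marked promoters. The ribosomal protein median was thus the lower one in each of the 8 libraries. In the Ser5P libraries the medians ranged from 70.3 to 79.0 for mitochondrial ribosomal proteins, from 76.0 to 80.0 for translation factors and from 80.2 to 83.9 for ribosome biogenesis factors. Small-subunit genes had medians of 69.3 and 65.2 in Ser5P KD and 72.8 and 73.1 in Ser5P control, and large-subunit genes 56.2 and 57.4 in KD and 61.5 and 62.2 in control.

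The family spread over nearly the whole scale. By the mean over the 4 Ser5P libraries, the highest were Rps29 (94.9), Rpl30 (94.8), Rpl21 (94.5), Rpl39 (94.4), Rps13 (94.2), Rpl15 (93.6), Rps23 (91.2) and Rpl27 (91.1). Rpl15, Rpl27 and Rps29 are Diamond-Blackfan genes, and Rpl39 is a small protein of the exit tunnel. The lowest with a peak in all 4 were Rpl10a (18.2), Rps9 (17.5), Rps18 (16.7) and Rpl8 (10.0), all core proteins. Rpl30 kept to a narrow band, with percentiles of 94.8 and 96.1 in KD and 93.7 and 94.8 in control. Rpl8 stood at 5.41 and 17.5 in KD and 8.28 and 8.76 in control. Peak width differed among the low-ranked genes. Rpl10a had 900 and 984 bp of Ser5P at its promoter in KD and 1208 and 832 bp in control, as long a stretch as in the high-ranked Rpl30, with 1078 and 1103 bp in KD and 1080 and 939 bp in control. Rps18 had 630 and 684 bp in KD and 769 and 439 bp in control, Rps9 had 447 and 386 bp in KD and 425 and 552 bp in control, and Rpl8 had 315 and 534 bp in KD and 343 and 482 bp in control.

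**Figure D3:**
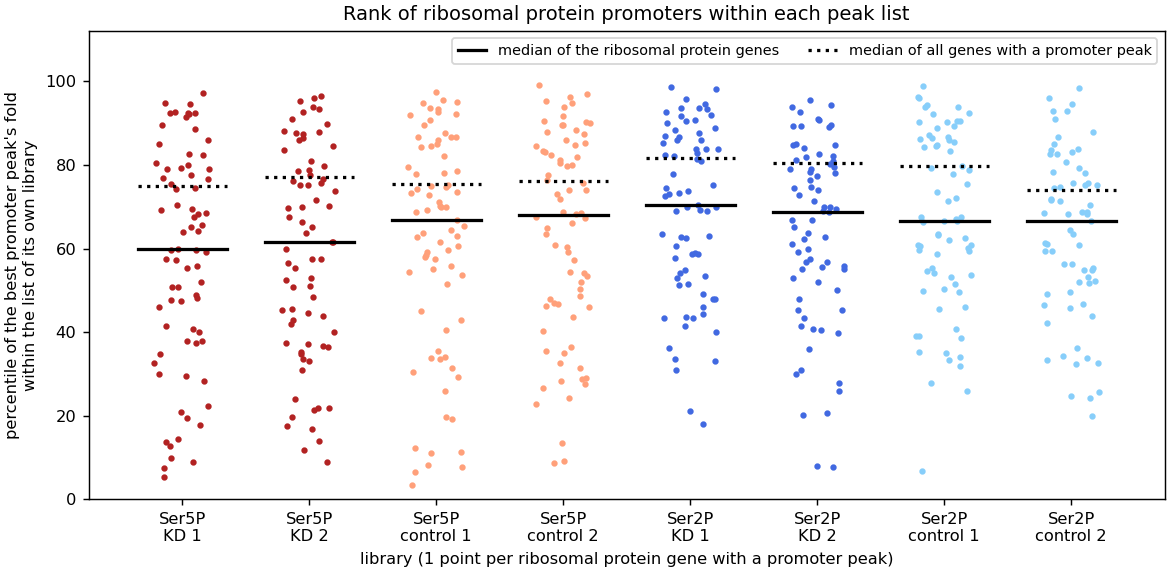
Percentile of each ribosomal protein gene's best promoter peak by fold within the peak list of its own library (y axis), 1 point per gene, for the 8 libraries (x axis, KD left of control). The solid line, the median of these genes, lies below the dotted line, the median of all genes with a promoter peak, in every library, for example at 59.8 against 75.1 in Ser5P KD 1.

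Behind the promoter, fewer ribosomal protein genes had a peak inside the gene than past its end. The genes are short, with a median length of 3175 bp against 17261.5 bp over all protein-coding genes, and 80 of 81 are under 10 kb (counted on the gene interval). Between 1000 bp inside the start and the 3′ end, Ser5P marked 16 and 16 genes in KD (19.8% and 19.8%) and 14 and 13 in control (17.3% and 16.0%), against 26.8% and 30.0% (KD) and 28.6% and 30.2% (control) of all genes, most of which are longer. Ser2P marked that stretch in 10 and 10 genes in KD and 11 and 9 in control (11.1% to 13.6%), against 24.7% to 34.1% of all genes. Part of this lay around a listed start inside the outer 5′ end. In Rps2 the stretch had 542 and 645 bp of Ser2P in KD and 498 and 280 bp in control. In Rpl18 it had 343 and 336 bp in KD and 281 and 0 bp in control. Within 1000 bp of the listed start, 1942 bp (Rps2) and 2604 bp (Rpl18) inside, Ser2P covered the same bp in each library. In both genes this held for Ser5P too. In the 3000 bp past the 3′ end, a division chosen after the data were seen, Ser5P marked 40 and 44 genes in KD (49.4% and 54.3%) and 32 and 33 in control (39.5% and 40.7%). Over all protein-coding genes the shares in that stretch were 11.4% and 12.8% in KD and 11.7% and 12.6% in control. Over the 8111 genes with promoter Ser5P in all 4 libraries they were 18.8% and 21.5% in KD and 19.0% and 20.7% in control. Ser2P marked this stretch in 43 and 43 ribosomal protein genes in KD (53.1% and 53.1%) and 39 and 23 in control (48.1% and 28.4%), against 17.1% and 15.9% (KD) and 15.4% and 10.8% (control) of all genes. The shallow Ser2P control 2 has the lowest count.

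Some ribosomal protein genes have another gene's promoter nearby, which limits what a peak past the 3′ end can be assigned to. In 22 of the 81, the downstream window overlaps the promoter window of another gene, for example Wdr38 behind Rpl35 and Ttyh2 behind Rpl38. Only the 21536 protein-coding genes were searched, at their outer 5′ ends. How often this occurs over all genes was not computed. In the other 59 genes, the stretch past the 3′ end was marked by Ser5P in 20 and 24 genes in KD (33.9% and 40.7%) and 14 and 16 in control (23.7% and 27.1%). Among these 59, Ser2P marked it in 24 and 22 genes in KD and 21 and 9 in control. The median distance of the best summit past the 3′ end was 1520 and 1611 bp in Ser5P KD and 1492 and 2029 bp in Ser5P control. Translation factors had Ser5P past the end in 23 and 28 of 71 genes in KD and 20 and 22 in control, ribosome biogenesis factors in 25 and 27 of 82 in KD and 21 and 23 in control, and mitochondrial ribosomal proteins in 13 and 17 of 78 in KD and 13 and 12 in control.

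**Figure D4:**
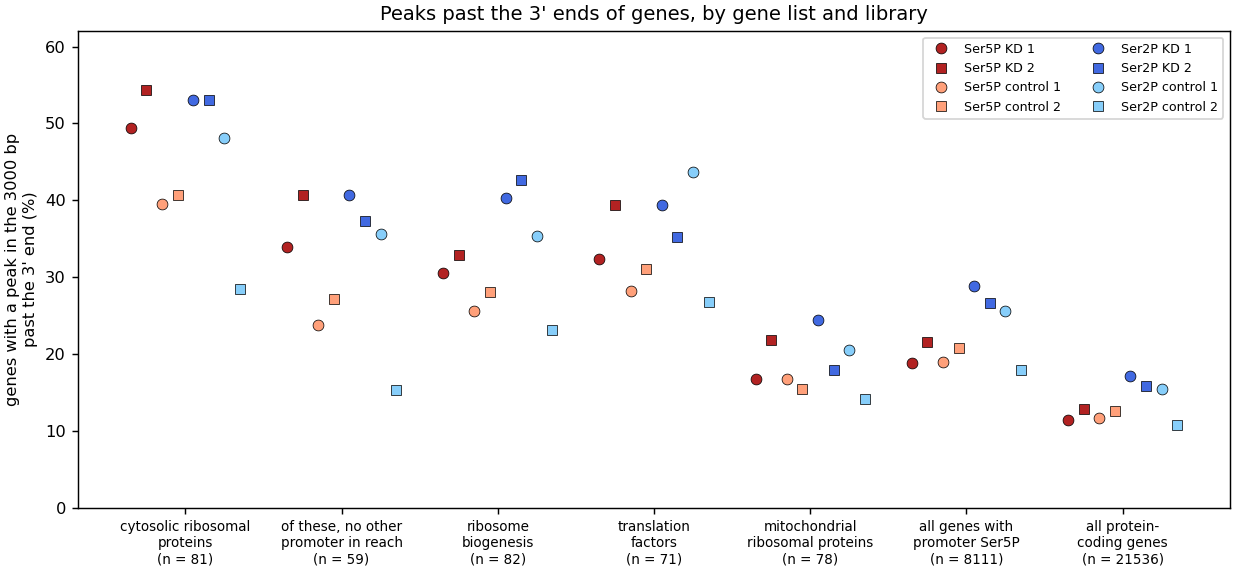
Share of genes (%) with a peak in the 3000 bp past the 3′ end (y axis) for each gene list (x axis), 1 point per library, circles for replicate 1 and squares for replicate 2, KD dark and left of control within an antibody. The ribosomal protein genes lie at 49.4% and 54.3% in Ser5P KD and at 39.5% and 40.7% in Ser5P control, above all protein-coding genes at 11.4% to 12.8%.

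Members differed widely in how much of the region behind the promoter was covered. In 24 of the 81 no library had a downstream peak (11 of 46 core 60S genes, 10 of 30 core 40S genes and 3 of 5 paralogs), and in 27 all 8 libraries had one. Rpl3, which lies near the peptidyl transferase centre, had the most downstream Ser2P, with 2114 and 2168 bp in KD and 1439 and 1059 bp in control. Both KD libraries lay above both controls. Its Ser5P covered 2434 and 2434 bp in KD and 2434 and 2426 bp in control, nearly the same stretch in every library. All of this lay past the 3′ end, where no promoter window of another of the 21536 protein-coding genes, taken at the outer 5′ end, reaches. Rpl38, a 60S protein whose window reaches the Ttyh2 promoter, had 1533 and 1123 bp of downstream Ser5P in KD and 378 and 522 bp in control with 1290 and 1668 bp of Ser2P in KD and 1186 and 743 bp in control. As the mean of the 4 Ser2P libraries, downstream coverage was 1695 bp in Rpl3, 1465 bp in Rpl22, 1389 bp in Rps2, 1222 bp in Rpl38, 1173.5 bp in Rps15a, 1168 bp in Rpl19, 1096 bp in Rpl35a and 1065.5 bp in Rps27l. For Rps2, Rpl19 and Rps27l this includes peaks around the listed start, which lies inside the outer 5′ end. The listed start of Rpl38 lies 762 bp inside. In Ser2P control 2, 520 of its 743 bp lay before the 3′ end, and 520 bp were covered around that start. In KD 1, KD 2 and control 1, all downstream Ser2P of Rpl38 lay past the 3′ end. In Rpl22, 1328 and 1309 bp of Ser2P in KD and 1129 and 880 bp in control lay before the 3′ end. Its nearest Ser2P summits lay 1465 and 1370 bp inside the gene in KD and 1406 and 1467 bp in control. Rps19, the gene most often mutated in Diamond-Blackfan anaemia, had 933 and 1111 bp of Ser2P past its end in KD and 611 and 545 bp in control, and 827 and 850 bp of Ser5P in KD and 681 and 731 bp in control. The KD values of Rps19 did not overlap the control values with either antibody. Rpl11 and Rpl30 had no downstream peak in any library, although both promoters were marked in all 8.

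At the promoters, the comparison of KD with control asked whether polymerase at the start of these genes differed with the knockdown. No ribosomal protein promoter gained or lost a Ser5P peak by presence, where a gene is called KD-only if both KD libraries and neither control have a peak, and control-only in the reverse case. The background was 0.409% of all genes called KD-only and 0.446% control-only. Covered Ser5P bp were higher in KD at 47 promoters and lower at 28. The groups did not overlap in 17 genes with higher KD values, against a background of 11.7% of all genes, and in 8 with lower KD values, against 4.94%. In percent of the 81 these counts are 21.0% and 9.88%. Many of all genes have no promoter peak, and among genes with any difference the ribosomal protein genes lay near the background: 62.7% of 75 were higher in KD, against 61.8% of all genes, and 22.7% did not overlap with higher KD values, against 25.7%. With Ser2P, 63 promoters were higher in KD and 11 lower, and 36 did not overlap with higher KD values and 0 with lower ones, against 21.5% and 1.03% of all genes. Among genes with any difference, 85.1% of 74 were higher in KD, against 85.9% of all genes, and 48.6% did not overlap with higher KD values, against 46.2%, so these counts too lay near the background. Both Ser2P KD libraries are deeper than both controls. By presence, 2 promoters were KD-only for Ser2P, Rps9 and Rpl8, against a background of 1.10%, and none was control-only, against 0.200%. Rps9, a 40S protein at the mRNA entry, had 425 and 290 bp of Ser2P in KD and 0 and 0 bp in control. Rpl8, a 60S protein, had 290 and 398 bp in KD and 0 and 0 bp in control. Both had Ser5P at the same promoters in every library, and neither call held at a −log10 q of at least 5 or after scaling to the shallowest library. Without Ser2P control 1, so that only the shallow control 2 had to lack a peak, the Ser2P count was 6, and without Ser2P control 2 there was 1 control-only promoter. For Ser5P there was 1 control-only promoter without KD 1 and 1 without control 2. These counts with a library left out have no share of all genes beside them and cannot be set against the backgrounds above.

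Behind the promoters, more ribosomal protein genes were marked in each KD library than in either control of the same antibody. Ser5P marked the downstream window of 47 and 48 genes in KD and of 36 and 38 in control. Over all genes the shares were 32.9% and 36.4% in KD and 34.8% and 36.6% in control. Covered Ser5P bp were higher in KD in 47 genes and lower in 7. The groups did not overlap in 23 genes with higher KD values (28.4% of the 81, against a background of 6.96%) and in 2 with lower KD values (2.47%, against 7.17%). Among genes with any difference, 87.0% of 54 were higher in KD, against 50.1% of all genes, and 42.6% did not overlap with higher KD values, against 15.2%. With 1 Ser5P library left out, 39 to 43 genes were higher in KD and 8 to 11 lower. Of the 23 non-overlapping genes with higher KD values, 9 were among the 59 genes with no other promoter in reach (15.3% of the 59). The rest were among the 22 genes whose window reaches another promoter. With lower KD values, 1 of the 59 did not overlap (1.69%). No share of all genes was computed with the same restriction. Past the 3′ end alone, 42 genes were higher in KD and 8 lower (51.9% and 9.88% of the 81), against 9.92% and 7.73% of all genes. Most of all genes have no difference there: 2137 were higher, 1665 lower and 17734 equal, with 31 of the 81 equal. With the same number of peaks taken from each Ser5P list the counts of marked genes were 47 and 47 in KD and 36 and 35 in control. Scaled to the shallowest Ser5P library they were 47 and 48 in KD and 36 and 38 in control, and with a −log10 q of at least 5 they were 38 and 39 in KD and 32 and 31 in control. An exact two-sided permutation test of 2 libraries against 2 cannot go below p = 0.333, so no p is attached to these counts.

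With Ser2P the downstream window was marked in 46 and 45 genes in KD and in 42 and 28 in control. Covered bp were higher in KD in 47 genes and lower in 3, and 25 did not overlap with higher KD values (30.9%, against 16.7% of all genes) and 0 with lower ones (against 1.72%). Among genes with any difference, 94.0% of 50 were higher in KD, against 77.1% of all genes, and 50.0% did not overlap with higher KD values, against 33.9%. Among the 59 genes with no other promoter in reach, 13 did not overlap with higher KD values (22.0%) and 0 with lower ones. For Ser2P too, no share of all genes was computed with the same restriction. With 1 Ser2P library left out, 40 to 48 genes were higher in KD and 0 to 10 lower. Without control 2 it was 40 higher and 10 lower, with 62.4% of all genes with any difference higher. Control 2, the shallowest library, had the lowest count. After scaling to the shallowest Ser2P library the counts were 43 and 39 in KD and 39 and 28 in control, so KD 2 no longer lay above control 1. Large-subunit genes with a downstream Ser5P peak numbered 30 and 32 of 46 in KD and 25 and 23 in control, and small-subunit genes 15 and 14 of 30 in KD and 9 and 13 in control. Among the 20 Diamond-Blackfan genes the counts were 9 and 8 in KD and 7 and 6 in control.

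By presence, 4 of the 81 genes were KD-only for downstream Ser5P (Rpl35, Rpl6, Rpl13 and Rps23), against a background of 1.08%. For downstream Ser2P 3 of the 81 were KD-only, Rpl6 and Rpsa among them, against 2.25%. Of the 8111 genes with promoter Ser5P in all 4 Ser5P libraries, 134 were KD-only for downstream Ser5P and 308 for downstream Ser2P. The Ser2P count is therefore not read as particular to ribosomal protein genes. No ribosomal protein gene was control-only, where the backgrounds were 1.44% for Ser5P and 0.548% for Ser2P. All of these peaks lay past the 3′ end. With 1 library left out fewer libraries have to meet the rule, and the KD-only count was then 8 without either Ser5P KD library and 7 without either Ser5P control. For Ser2P it was 5 without KD 1, 6 without KD 2 and 15 without control 1. Control-only genes numbered 1 without Ser5P control 1 and 2 without Ser2P control 2. The share of all genes called with a library left out is not given here, so these counts cannot be set against the backgrounds above. Rpl35, a 60S protein at the exit tunnel and a Diamond-Blackfan gene, had 783 and 1321 bp of Ser5P in KD and 0 and 0 bp in control. Its window reaches the promoter of Wdr38, its Ser2P was present in all 4 libraries, and the call was lost when the summit had to lie in the window. Rpl13, a 60S protein, had 643 and 1162 bp of Ser5P in KD and 0 and 0 bp in control, with 1286 and 555 bp of Ser2P in KD and 279 and 0 bp in control. Rps23, a 40S protein of the decoding centre, had 269 and 418 bp of Ser5P in KD and 0 and 0 bp in control, and no Ser2P there in any library. The calls of Rpl13 and Rps23 were lost at a −log10 q of at least 5.

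Rpl6 was the gene called with both antibodies. It had 521 and 744 bp of Ser5P past its end in KD and 0 and 0 bp in control, and 316 and 781 bp of Ser2P in KD and 0 and 0 bp in control. No promoter window of another of the 21536 protein-coding genes, taken at the outer 5′ end, reaches its downstream window. Its Ser5P call held at a −log10 q of at least 5, with equal list lengths and after depth scaling, and its Ser2P call was lost under each of these 3. Rpsa, a 40S protein that also occurs as a laminin receptor, had 523 and 615 bp of Ser2P in KD and 0 and 0 bp in control, and its call was lost at the stricter q, with equal list lengths and after depth scaling. Among the related lists, Mrpl13, Mrpl14 and Mrpl11 were KD-only for downstream Ser2P among the mitochondrial ribosomal proteins. For downstream Ser5P, Eif3m, Eif2b3 and Eif2ak2 were KD-only among the translation factors. The ribosome biogenesis factors had 4 KD-only genes for downstream Ser5P (Tex10, Ddx51, Rrp9 and Wdr43) and 2 control-only (Nop53 and Rrp1b). For downstream Ser2P 7 of the 82 were KD-only, Nop56, Gar1, Rrp9 and Utp20 among them, and none control-only. The translation factors had 1 KD-only gene for downstream Ser2P (Eif3j1), and the mitochondrial list had 0 for downstream Ser5P.

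**Figure D5:**
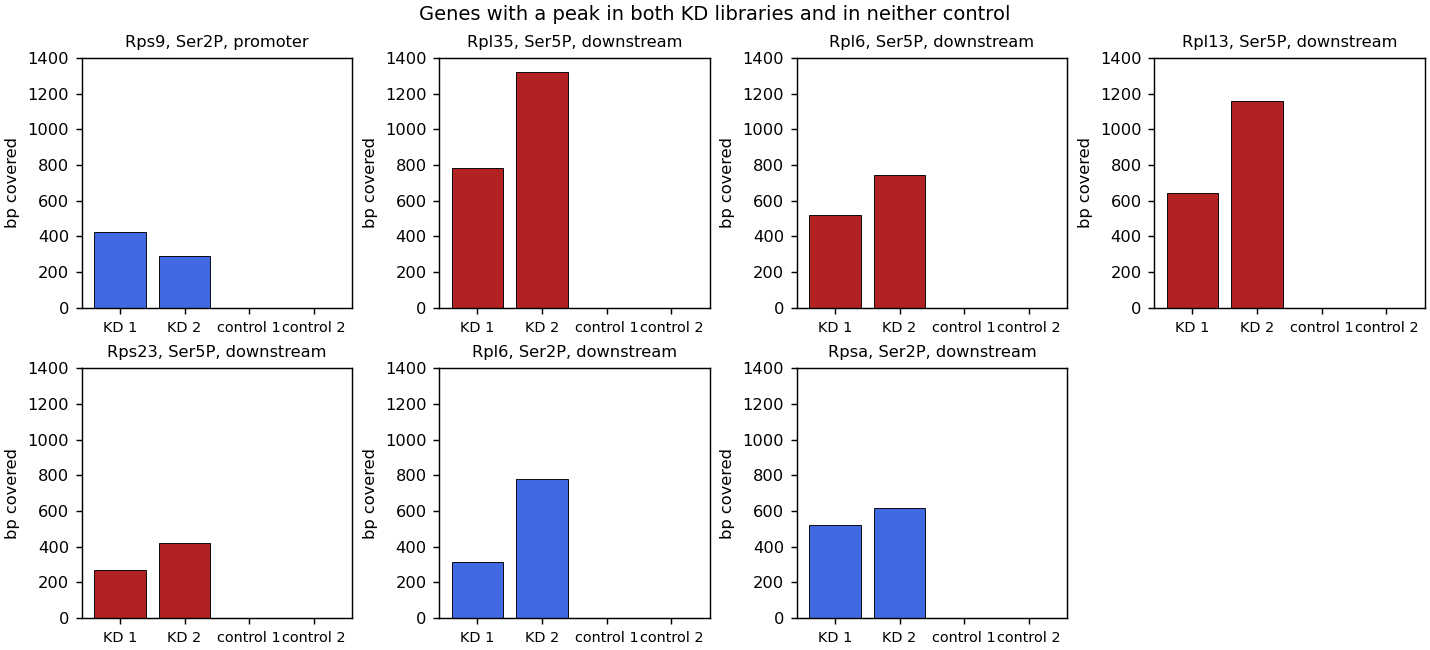
Covered bp (y axis) in each library of the antibody for genes with a peak in both KD libraries and in neither control and an entry in the RefSeq promoter table, 1 panel per gene, antibody and window, KD left of control. Control bars are at 0 throughout, and KD bars range from 269 bp (Rps23, Ser5P) to 1321 bp (Rpl35, Ser5P).

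A fit with limma on the covered share of each window, over all genes covered in at least 2 of the 8 libraries and with Benjamini-Hochberg adjustment over all of them, asked which single genes differed beyond the spread between libraries. It tested 75 ribosomal protein genes at the promoter and 48 downstream. At the promoter limma called no ribosomal protein gene for KD minus control, with 4 higher and 0 lower at an unadjusted p under 0.05 for Ser5P and 18 higher and 0 lower for Ser2P. The background was 0 genes called in either direction with either antibody. Here and below each background counts adjusted calls only, so the unadjusted counts have no share of all genes beside them. With Ser2P, 85.9% of all genes with any difference at the promoter were higher in KD. The unadjusted Ser2P count is therefore not read as particular to these genes. Downstream, limma called none for Ser5P (12 higher and 1 lower at an unadjusted p under 0.05), against a background of 0.0602% of genes higher and 0.0903% lower. For Ser2P it called 1 higher and 0 lower, against a background of 0.772% higher and 0.0502% lower. The count was 0 without either Ser5P KD library and without either Ser2P KD library. Without Ser2P control 1, limma called 4 genes higher for downstream Ser2P, and 1 for downstream Ser5P without either Ser2P control. Without Ser2P control 1 it also called 1 promoter higher for Ser2P. In the stretch past the 3′ end alone, limma called 2 genes higher in KD for Ser2P and none lower, Rpl3 among them (29.73 percentage points of the stretch, SE 4.24, adjusted p = 0.0434), against a background of 1.43% higher and 0.0509% lower. The depth and width differences named above run in the same direction, and their part in these calls was not tested.

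Set against each other, the antibodies covered the promoters to different extents. Ser5P coverage, as the mean of the 4 libraries, was above Ser2P coverage at 68 promoters and below it at 7. The 4 Ser5P libraries lay above all 4 Ser2P libraries in 11 genes and below them in 0, against backgrounds of 2.41% and 0.390%. Among genes with any difference, 90.7% of 75 were above, against 61.5% of all genes, and without Ser2P control 2 the count was 62 above and 13 below, against 47.7% of all genes above. limma called none of the 75 promoters tested for Ser5P minus Ser2P (19 higher and 0 lower at an unadjusted p under 0.05), against a background of 0.673% higher and 0.234% lower. Downstream, Ser5P was above Ser2P in 38 genes and below in 18, with 1 gene not overlapping above and 0 below, against 1.17% and 1.20%. This direction turned without Ser2P control 2, with 24 genes above and 33 below, and without Ser5P KD 2, with 24 above and 30 below. limma called none of 48 there (6 higher and 1 lower at an unadjusted p under 0.05), with 0.221% of all genes higher and 0.201% lower, and without either Ser2P control it called 1 higher and 1 lower. In the stretch past the 3′ end alone it called Rpl3, by 24.57 points (SE 2.99, adjusted p = 0.0332), and none lower, against a background of 0.687% higher and 0.891% lower. For the difference of the KD effect between Ser5P and Ser2P, limma called no ribosomal protein gene at the promoter (0 higher and 7 lower at an unadjusted p under 0.05; background 0 in both directions). It also called none downstream (3 higher and 4 lower; background 0.0100% and 0.0301%), and 1 lower without Ser2P control 1. Other settings with all 8 libraries gave 2 promoters lower (log2 coverage) and 1 downstream window higher (equal list lengths over all libraries).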

How the data were processed

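The authors deposited 1 MACS2 peak list per library. The submitters' processing notes name the builds GRCm38 and mm10 and the tools MACS2 2.2.7.1, Bowtie2 2.3.5, cutadapt 2.7, deepTools 3.3.1, Picard 2.21.4 and SAMtools 1.9, and no parameters are given in the sources used. Each deposited peak has a display score (not used), a fold over background as a ratio, a −log10 p-value and a −log10 q-value. The fold was used to rank peaks within a list, and q as a filter. Read totals were not used; pileups were solved from fold and p (tolerance 0.001 on −log10 p) for depth scaling. Peaks off the assembled chromosomes (24 to 30 in a library) were dropped.

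Gene intervals came from RefSeq (GRCm38.p6). Strand came from the RefSeq promoter table (17492 genes) or GENCODE vM1 by symbol (3649) or synonym (395) on the same chromosome, and 351 genes without strand were left out. A wide interval can place the outer 5′ end away from the used start.

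limma 3.58.1 (R 4.3.3) was fitted to the covered percentage of each window with all 8 libraries as 4 groups (4 residual degrees of freedom), checked on simulated data. Other values were computed with Python 3.11.15, numpy 2.4.6, pandas 2.3.3 and scipy 1.17.1. Named genes were those called by presence or limma, those lacking a Ser5P promoter peak, the 8 highest and 4 lowest by promoter percentile, the 8 with most downstream Ser2P, and all paralogs, with up to 4 called genes per related list. A few called genes are withheld from the text, and Rps19 and Rpl11 were added after their values were seen. The members, lists and tests were chosen with earlier results of these data known. Replicate numbers were taken not to pair the libraries: the labels name no shared source, and there are only 2 pairs. Alternatives were a stricter q, equal list lengths, depth scaling, other overlaps and windows, other scales and filters, a replicate block and leaving out each library; the listed start and the stretch past the 3′ end were added after seeing the data.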

Additional observations from a re-analysis of the deposited data

Results flagged for a closer look

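At 5 ribosomal protein gene windows the 2 KD libraries lay on one side of the controls with Ser5P and on the other side with Ser2P. Counting both windows of the 81 genes these are 3.09% of 162, against 2.10% of the windows of all genes. Covered bp, KD minus control, at the Rpl12 promoter were -35 for Ser5P and 200.5 for Ser2P. The Rps26 promoter had -155.5 for Ser5P and 224.5 for Ser2P. The Rpl19 promoter had -163 for Ser5P and 219.5 for Ser2P. The Rpl7a downstream window had -196.5 for Ser5P and 328.5 for Ser2P, and the Rps9 downstream window -349.5 for Ser5P and 152.5 for Ser2P. They were picked by these opposite directions, without a test of the difference. In the limma fit over all genes the adjusted p of the difference was 0.558 for Rpl12, 0.479 for Rps26, 0.419 for Rpl19, 0.652 for Rpl7a and 0.385 for Rps9. The Ser2P KD libraries are the deeper ones, and the part of depth was not tested.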

How the results depend on the processing

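Counts are of ribosomal protein genes, KD-only first where both are named. At a −log10 q of at least 5, KD-only genes numbered 1 at the promoter and 5 downstream for Ser2P. With equal list lengths per antibody the downstream Ser2P KD-only count was 5, and with depth scaling the Ser2P promoter count was 1. With at least 200 bp covered, 1 Ser5P promoter was control-only; with the summit in the window, 1 downstream Ser5P gene was control-only; and with 2000 bp promoters 1 Ser5P promoter was KD-only. With the window ending at the 3′ end, 11 (Ser5P) and 8 (Ser2P) genes were marked downstream in all 4 libraries, KD-only genes numbered 1 for Ser5P and 0 for Ser2P, 1 Ser5P gene was control-only, and limma called 0 for Ser2P. With the downstream window taken from the 5′ end, 77 (Ser5P) and 71 (Ser2P) genes were marked in all 4 libraries, the Ser5P KD-only count was 0, and limma called 0 for Ser2P KD minus control and 2 for Ser5P minus Ser2P. With log2 coverage limma called 3 higher for Ser2P and 2 for Ser5P minus Ser2P at the promoter, 2 lower for the interaction there, 1 higher for downstream Ser5P and 0 for downstream Ser2P. Without the filter it called 1, 1 and 0 for Ser2P promoter, Ser5P minus Ser2P promoter and downstream Ser2P. Equal list lengths over all libraries gave 1 higher for downstream Ser5P, 2 for Ser5P minus Ser2P and 1 for the interaction. Promoters of 500 bp gave 1 for Ser5P minus Ser2P. The single downstream Ser2P call became 0 with the listed start, with only the Ser2P libraries and with the replicate block, and the stretch past the 3′ end gave 2 (Ser2P) and 1 (Ser5P minus Ser2P). Across genes, the deviation of replicate 1 from the mean of its group was correlated between KD and control. This correlation was 0.0402 and 0.00810 at the promoter and 0.0166 and 0.101 downstream (Ser5P, then Ser2P). The block changed no other count of limma calls at an adjusted p under 0.05. The cause of these shifts was not tested. Leaving out each library in turn, genes marked in all libraries numbered 73 to 74 and 67 to 71 at the promoter (Ser5P, Ser2P) and 32 to 35 and 28 to 40 downstream. KD-only genes ran from 0 to 0, 2 to 6, 7 to 8 and 3 to 15, and control-only genes from 0 to 1, 0 to 1, 0 to 1 and 0 to 2. No share of all genes is given for these ranges. limma counts ran from 0 to 1 for the Ser2P promoter, 0 to 1 for downstream Ser5P, 0 to 4 for downstream Ser2P, and 0 to 1 in either direction for downstream Ser5P minus Ser2P; the downstream interaction gave 0 to 1 lower. No gene called by presence turned its direction, but the balance of downstream Ser5P minus Ser2P did without Ser2P control 2, where 24 genes were above and 33 below, against 38 and 18 with all libraries, and without Ser5P KD 2, where 24 were above and 30 below. In the limma fit without Ser2P control 2 the median over tested genes was −0.53 points for it, against 0.62 with all libraries, and 1.13 points for the downstream interaction, against −1.06. With the window ending at the 3′ end that interaction had a median of 0.55 points over 16 genes. Leaving the library omissions aside, 35 counts moved by over 1.5 times or changed to or from 0, and 211 did not. Counts that were 0 and stayed 0 are among the 211.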

Other observations

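A peak list records where a signal passed a threshold and how wide it was, so neither polymerase amount nor transcription rate was measured. With 2 libraries a group, a difference at 1 gene has to be large to be called. Strand is not recorded in this assay, so a peak past a 3′ end in a crowded region cannot be told apart from one of the neighbour. Ribosomal protein genes have many processed pseudogene copies, and how reads shared with a copy were placed is not given here, so peaks within exons are uncertain.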
